A study of Mus musculus with 4 samples.

Results

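The interferon-stimulated antiviral effector genes are 39 genes, out of 38293 gene rows in the deposited count files. Many of their products block virus entry, replication or release, and some regulate interferon or inflammatory signalling. The genes were chosen by symbol through their Ensembl mouse gene identifiers, and all 39 were found. They fall into 9 sets by product, which are the Mx GTPases (2 genes), the OAS family (7), the IFIT family (4), the ISG15 system (4), the PARP genes with Dtx3l (3), TRIM ligases (3), nucleotide and RNA enzymes (4), membrane and trafficking proteins (3) and 9 other effectors. Sensors, guanylate-binding proteins, chemokines and MHC genes are not among them. The mammary tumours came from MMTV-Neu mice of the FVB strain, and their RNA was sequenced in 2 AXL KO libraries (AXL-/-) and 2 WT libraries (AXL+/+). Tumours of both groups carry the Neu (Erbb2) oncogene, which the mouse mammary tumour virus promoter drives in mammary epithelium. The labels give neither the ages of the mice nor the kind of Axl allele. Nor do they say that the libraries of a group came from separate animals or tumours, so a p-value reflects the spread among these 4 libraries alone, which may be technical.

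Type I and type III interferons bind surface receptors that act through the kinases JAK1 and TYK2. Type I and type III interferons then lead to a complex that holds STAT2 and IRF9 and binds a promoter element called the interferon-stimulated response element (ISRE), while interferon gamma acts through another element, GAS. Many antiviral effector genes are silent or low at rest and are switched on together by this route. AXL belongs to the TAM receptor kinases, which are known in dendritic cells to dampen inflammatory signalling after interferon receptor engagement. In tumours the antiviral genes can be expressed by the tumour cells themselves and by infiltrating immune cells.

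Between 18929743 and 33131739 reads were counted in genes per library. Axl, the targeted gene, was at 4.75 and 4.89 CPM in AXL KO tumours, against 61.8 and 35.2 CPM in WT tumours, with a log2 difference of −3.33 ± 0.35 (SE) and an adjusted p of 0.9997 by edgeR and 2.2e-13 by DESeq2. The mammary tumour label was set against epithelial markers, and all 7 were detected in every library. Epcam was at 1318 and 1342 CPM (AXL KO) against 1329.6 and 966 CPM (WT). Krt8 was at 636 and 529 CPM (AXL KO) against 610.3 and 928 CPM (WT), so that Epcam was lowest and Krt8 highest in WT replicate 2. Erbb2, the mouse counterpart of the Neu oncogene, was at 19776 and 19975 CPM (AXL KO) against 10967 and 12594 CPM (WT), higher in both AXL KO libraries. Whether reads from the Neu oncogene were counted as Erbb2 is not known. AXL KO replicate 2 carries another prefix in its description than the other 3 libraries. It is the single library with that prefix, so the values without it are those within the shared prefix.

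The 39 genes took 0.468% and 0.504% of the gene reads in AXL KO replicates 1 and 2, against 0.357% and 0.0691% in WT replicates 1 and 2. The shares of both AXL KO libraries and WT replicate 1 lay near each other, and WT replicate 2 stood far below. Single levels are given as CPM, the count scaled to library size with TMM factors. All 39 genes passed the filter on low counts and all had a positive log2 difference (AXL KO minus WT), where 49.7% of the 14330 tested genes did. The median over the members was 1.32 and that over all tested genes −0.00195. The lower AXL KO library was above the higher WT library for 34 of the 39, where 14.7% of the tested genes had that order, and the reverse order held for 0 of the 39 and 14.5% of the tested genes. The groups overlapped for Oas3, Isg20, Epsti1, Sp100 and Siglec1. WT replicate 2 was the lowest library for 38 of the 39, the exception being Isg20, and for 35.8% of all tested genes.

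By edgeR's quasi-likelihood test 0 of the 39 had an adjusted p (Benjamini-Hochberg) under 0.05, where 0.0% of all tested genes passed. The adjusted p was 0.9997 for each of them, and 0 of the 39 had an unadjusted p under 0.05 in that test, where 2.19% of all tested genes had. DESeq2 and limma-voom also called 0 members, where they called 0.112% and 0.0% of all tested genes, with 9 and 6 at an unadjusted p under 0.05 against 3.5% and 1.99% of all tested genes. The gap between the 2 WT libraries was larger than the log2 difference between the groups for every one of the 39. It was also larger for 10481 of the 14330 tested genes. The 39 genes were all measured in the same 4 libraries, so counts over them are descriptions.

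**Figure D1:**
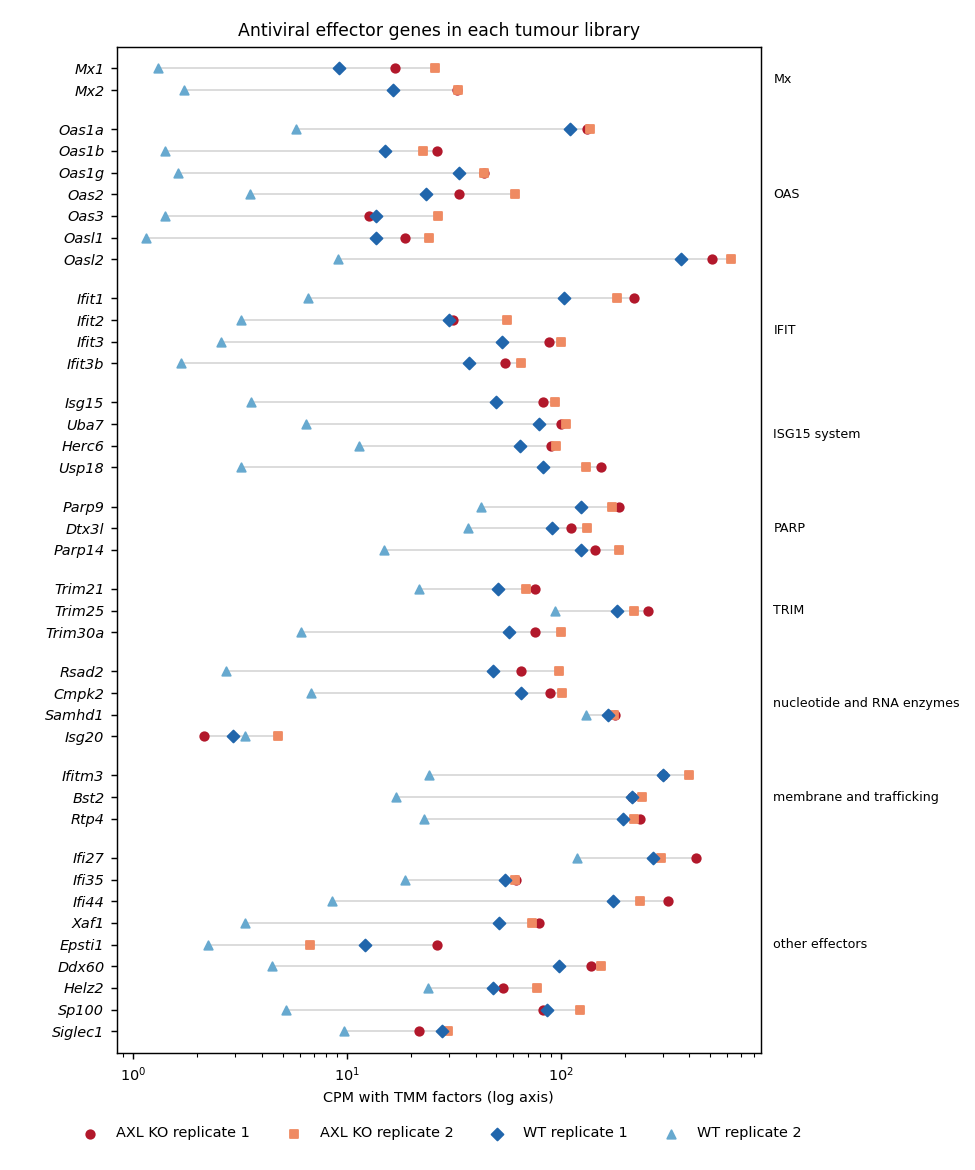
Level of each of the 39 genes in each library, as CPM with TMM factors on a log axis, with genes in rows by set and 1 symbol per library. WT replicate 2 is the lowest symbol for every gene other than Isg20, and both AXL KO symbols lie to the right of both WT symbols for 34 genes.

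Promoter sequences of the members were searched for the letters of these elements. RefSeq windows of build GRCm38.p6, running from 250 bases before to 50 bases after a start site, were at hand for 29 of the 39 genes in 34 windows. They belong to the reference strain and not to FVB. An ISRE core was searched on both strands as the letters GAAA, any 2 bases and GAAA again, which read as TTTC, any 2 bases and TTTC on the other strand, and matches may overlap. It was found in 13 of the 29 genes (44.8%), and in 14 of the 34 windows (41.2%) against 3.44% of all 32851 windows in the table. The GAS letters TTCNNNGAA, which read the same on both strands, were in 7 of the 34 windows (20.6%) against 8.3% of all windows, and overlapped an ISRE match in Bst2 and Ifitm3. The stretches below lie before the start site and carry up to 20 bases on each side of the matches, ending at the start site, with the matched letters in capitals. They are shown for members of different sets and for the near copies, whose levels are described next. Each is written 5′ to 3′ on the strand of its gene.
Isg15: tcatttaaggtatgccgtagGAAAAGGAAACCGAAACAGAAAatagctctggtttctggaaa
Ifit1: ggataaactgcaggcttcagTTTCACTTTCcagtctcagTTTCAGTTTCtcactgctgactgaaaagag
Ifit3: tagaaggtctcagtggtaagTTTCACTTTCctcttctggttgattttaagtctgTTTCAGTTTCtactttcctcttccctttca
Ifit3b: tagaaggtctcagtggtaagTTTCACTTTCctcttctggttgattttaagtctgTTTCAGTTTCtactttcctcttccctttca
Oas1a: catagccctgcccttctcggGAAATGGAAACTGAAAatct
Oas1g: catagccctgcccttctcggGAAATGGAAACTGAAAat
Rsad2: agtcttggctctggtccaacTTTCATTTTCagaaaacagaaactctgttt
Ddx60: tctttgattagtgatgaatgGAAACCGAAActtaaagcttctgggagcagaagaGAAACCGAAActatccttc
Bst2: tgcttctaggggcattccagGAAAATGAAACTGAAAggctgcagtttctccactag
Isg15 lies on the minus strand at chr4:156200855-156200916, and its 3 matches overlap in 1 run. Ifit1 at chr19:34640765-34640833, Ifit3 at chr19:34583353-34583436 and Ifit3b at chr19:34607749-34607832 lie on the plus strand and hold 2 matches each, which appear here in the TTTC form because the core is on the other strand. All 84 bases of the Ifit3 stretch are identical in Ifit3b. The minus-strand stretches of Oas1a at chr5:120907526-120907565 and Oas1g at chr5:120887614-120887651 are identical over the 38 bases they share. Rsad2 at chr12:26456543-26456592 and Bst2 at chr8:71537567-71537622 lie on the minus strand, with the TTTC form in Rsad2, and Ddx60 at chr8:61928014-61928086 on the plus strand. A match is a run of letters and not a shown binding site.

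Genes with and without an ISRE match were lowest in WT replicate 2, other than Isg20, which had no ISRE match. Over the 13 genes with an ISRE match the median log2 difference was 1.48, with a range from 0.97 to 1.87, and WT replicate 1 was at a median of 15.7-fold the level of WT replicate 2. Over the 16 genes with a window and no match the median was 1.23, with a range from 0.15 to 1.61, and the median WT ratio 7.53-fold. The WT ratios ran from 2.34-fold to 22.2-fold with a match and from 0.879-fold (Isg20) to 39.95-fold without. Oasl2, the gene with the widest WT gap, had no match in its window, which says nothing about bases outside it.

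**Figure D2:**
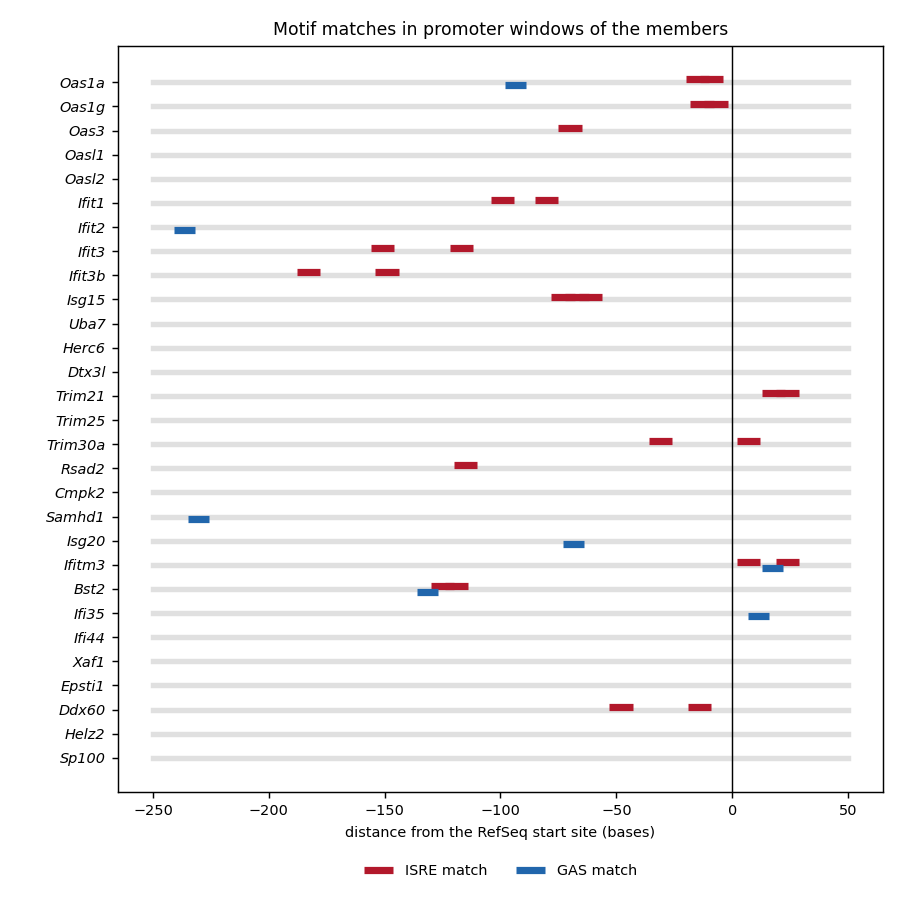
Position of ISRE (red) and GAS (blue) matches in the promoter windows of the 29 genes that had one, in bases from the RefSeq start site. Windows of a gene with several start sites are drawn on 1 row. Ifit1, Ifit3, Ifit3b, Isg15, Oas1a, Oas1g, Ddx60 and Bst2 hold 2 or 3 ISRE matches before the start site.

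The Mx genes encode dynamin-like GTPases, and in the mouse Mx1 acts in the nucleus against influenza viruses while Mx2 acts in the cytoplasm. They lie near each other on chromosome 16, between 97447035 and 97560900 in GRCm38. Mx1 was at 16.8 and 25.9 CPM in AXL KO tumours, against 9.16 and 1.31 CPM in WT tumours. Its log2 difference was 2.02 ± 0.86, the largest of the 39 genes. Mx2 was at 32.6 and 33.2 CPM in AXL KO tumours, against 16.4 and 1.73 CPM in WT tumours, with a log2 difference of 1.86 ± 0.94. Both AXL KO libraries were above both WT libraries for both genes. The AXL KO libraries were at almost the same Mx2 level, and for Mx1 replicate 2 was 1.54-fold above replicate 1. Without WT replicate 2 the log2 differences were 1.22 for Mx1 and 1.004 for Mx2.

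OAS enzymes sense double-stranded RNA and make short adenylate chains as a signal, and the OAS-like proteins carry ubiquitin-like domains. The Oas genes lie on chromosome 5 between 120730333 and 120907521, and Oasl1 and Oasl2 lie on the same chromosome between 114896936 and 114937915. Oasl2 had the highest level per length in the family in the AXL KO mean, and was at 508 and 627 CPM in AXL KO tumours, against 364 and 9.11 CPM in WT tumours. WT replicate 1 was thus 39.95-fold above WT replicate 2, the widest gap among the 39 genes. The log2 difference of Oasl2 was 1.61 ± 1.41. Oas1a, which encodes an active synthetase, was at 132 and 136 CPM in AXL KO tumours, against 110.1 and 5.76 CPM in WT tumours. Oas1g, its near copy, was at 43.6 and 43.9 CPM in AXL KO tumours, against 33.4 and 1.62 CPM in WT tumours. For both genes the AXL KO libraries lay within 1.03-fold of each other, and at 1.20-fold to 1.31-fold the level of WT replicate 1. Their log2 differences were 1.21 ± 1.17 and 1.32 ± 1.17.

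Oas1b, the flavivirus resistance gene of mice, was at 26.3 and 22.6 CPM in AXL KO tumours, against 15.01 and 1.41 CPM in WT tumours, with a log2 difference of 1.57 ± 0.97. Oas2 was at 33.3 and 61.2 CPM in AXL KO tumours, against 23.4 and 3.51 CPM in WT tumours. Here AXL KO replicate 2 was 1.84-fold above replicate 1, and the log2 difference was 1.81 ± 0.87. Oas3 was at 12.7 and 26.7 CPM in AXL KO tumours, against 13.7 and 1.41 CPM in WT tumours. Its groups overlapped, because AXL KO replicate 1 was just under WT replicate 1, and its log2 difference was 1.37 ± 0.998. Oasl1, which in the mouse restrains Irf7 translation, was at 18.7 and 24.1 CPM in AXL KO tumours, against 13.7 and 1.15 CPM in WT tumours, with a log2 difference of 1.52 ± 1.01. For 6 of the 7 OAS genes the groups did not overlap, and the family median was 1.52.

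IFIT proteins bind viral RNA and block its translation, with IFIT1 reading the cap and IFIT3 acting as its partner in human cells. The 4 genes form a cluster on chromosome 19 between 34550694 and 34650009. Ifit1 was at 221 and 184 CPM in AXL KO tumours, against 104 and 6.60 CPM in WT tumours. It was highest in AXL KO replicate 1, at 2.13-fold the level of WT replicate 1, and its log2 difference was 1.87 ± 1.13. Ifit3 was at 87.8 and 100.1 CPM in AXL KO tumours, against 52.98 and 2.57 CPM in WT tumours. Ifit3b, a near copy of Ifit3, was at 54.8 and 64.8 CPM in AXL KO tumours, against 37.3 and 1.68 CPM in WT tumours. The log2 differences of these copies were 1.76 ± 1.20 and 1.62 ± 1.21. Ifit2, which binds RNA rich in adenine and uracil, was at 31.4 and 56.2 CPM in AXL KO tumours, against 29.9 and 3.19 CPM in WT tumours, with a log2 difference of 1.4 ± 0.97. Replicate 1 of AXL KO was only 1.05-fold above WT replicate 1 for Ifit2. All 4 genes had both AXL KO libraries above both WT libraries, with a family median of 1.69.

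The ISG15 system attaches the ubiquitin-like protein ISG15 to other proteins. Isg15 itself was at 82.2 and 94.5 CPM in AXL KO tumours, against 50.03 and 3.56 CPM in WT tumours, with a log2 difference of 1.72 ± 1.08. Uba7, the activating enzyme, was at 101 and 106 CPM in AXL KO tumours, against 79.1 and 6.44 CPM in WT tumours. Herc6, the main ISG15 ligase of the mouse, was at 90.1 and 95.5 CPM in AXL KO tumours, against 64.8 and 11.4 CPM in WT tumours. Their log2 differences were 1.27 ± 1.03 and 1.28 ± 0.76. Usp18, which removes ISG15 and also restrains signalling at the interferon receptor, was at 155 and 131 CPM in AXL KO tumours, against 82.5 and 3.19 CPM in WT tumours, with a log2 difference of 1.74 ± 1.27. The modifier, the enzymes that attach it and the enzyme that removes it thus had the same order of groups, with both AXL KO libraries above both WT libraries for all 4. Within WT the gap ran from 5.70-fold for Herc6 to 25.8-fold for Usp18.

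PARP9 and DTX3L act as a pair that joins ADP-ribose transfer to ubiquitin ligation, and PARP14 is a mono-ADP-ribosyltransferase. Parp9 was at 188 and 174 CPM in AXL KO tumours, against 124 and 42.4 CPM in WT tumours. Dtx3l was at 112 and 133 CPM in AXL KO tumours, against 91.04 and 36.8 CPM in WT tumours. The WT gap was smaller for these genes than for the families above, at 2.93-fold and 2.47-fold. Parp14, in the same stretch of chromosome 16, was at 145 and 188 CPM in AXL KO tumours, against 124 and 14.9 CPM in WT tumours, so its WT gap was 8.37-fold. The log2 differences were 1.12 ± 0.50 for Parp9, 0.94 ± 0.44 for Dtx3l and 1.26 ± 0.91 for Parp14. Parp9 and Dtx3l start from opposite strands and share 458 exonic bases at chromosome 16, and whether reads there were split by strand is unknown.

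Among the TRIM ligases, Trim30a differed most between the WT libraries and Trim25 least. Trim30a, a mouse gene that restrains inflammatory signalling, was at 75.95 and 101 CPM in AXL KO tumours, against 57.00 and 6.13 CPM in WT tumours. Trim21, a cytosolic antibody receptor, was at 75.4 and 68.7 CPM in AXL KO tumours, against 51.1 and 21.8 CPM in WT tumours. Trim25, which promotes signalling of the RNA sensor RIG-I, was at 255 and 221 CPM in AXL KO tumours, against 184 and 93.7 CPM in WT tumours. The log2 differences were 1.48 ± 0.95, 0.98 ± 0.41 and 0.78 ± 0.35 in that order. Trim21 had the smallest unadjusted p of the 39 members by edgeR, 0.0622, with an adjusted p of 0.9997.

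Of the nucleotide and RNA enzymes, Rsad2 (viperin), which makes a chain-terminating nucleotide, was at 64.9 and 97.8 CPM in AXL KO tumours, against 48.3 and 2.72 CPM in WT tumours. Its neighbour on chromosome 12, the nucleotide kinase gene Cmpk2, was at 88.8 and 101 CPM in AXL KO tumours, against 65.4 and 6.81 CPM in WT tumours. Their log2 differences were 1.67 ± 1.16 and 1.39 ± 0.95. The remaining enzymes were the members that differed least among the 4 libraries. Samhd1, which breaks down deoxynucleotides, was at 180.3 and 178 CPM in AXL KO tumours, against 167 and 131 CPM in WT tumours, with a log2 difference of 0.27 ± 0.19. Isg20, an exonuclease gene, was at 2.14 and 4.77 CPM in AXL KO tumours, against 2.95 and 3.35 CPM in WT tumours, with a log2 difference of 0.15 ± 0.49. It was the lowest member per length in AXL KO, with 40 to 159 counts a library, and its AXL KO libraries enclosed both WT libraries.

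Ifitm3 and Bst2 had the highest levels per length by the AXL KO mean. Ifitm3, which blocks fusion of entering viruses, was at 301 and 396 CPM in AXL KO tumours, against 300.0 and 24.3 CPM in WT tumours. Bst2 (tetherin), which holds budding particles at the cell surface, was at 216 and 241 CPM in AXL KO tumours, against 216 and 16.9 CPM in WT tumours. For both, AXL KO replicate 1 and WT replicate 1 were at almost the same level, with ratios of 1.004 and 1.0006, and with DESeq2 size factors or plain library totals their groups overlapped, which left 32 genes without overlap in place of 34. Rtp4, a trafficking protein, was at 234 and 219 CPM in AXL KO tumours, against 196 and 22.8 CPM in WT tumours. The log2 differences were 1.10 ± 1.04 for Ifitm3, 0.97 ± 1.04 for Bst2 and 1.05 ± 0.91 for Rtp4. Without WT replicate 2 they came to 0.21, 0.08 and 0.20.

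Among the 9 other effectors, log2 differences ran from 0.45 ± 0.52 for Siglec1 to 1.58 ± 1.22 for Ifi44. Ifi44, an interferon-induced gene with a GTPase-like domain, was at 317 and 236 CPM in AXL KO tumours, against 176 and 8.53 CPM in WT tumours. Ddx60, which encodes a helicase of the RNA sensing route, was at 138 and 155 CPM in AXL KO tumours, against 98.5 and 4.45 CPM in WT tumours, and its log2 difference was 1.51 ± 1.22. Xaf1, which encodes a partner of the apoptosis inhibitor XIAP, was at 78.8 and 73.4 CPM in AXL KO tumours, against 51.3 and 3.35 CPM in WT tumours, with a log2 difference of 1.48 ± 1.10. These 3 genes had WT gaps of 20.6-fold, 22.1-fold and 15.3-fold. Ifi27, a mitochondrial membrane protein gene, was at 428 and 294 CPM in AXL KO tumours, against 271 and 119 CPM in WT tumours, with a log2 difference of 0.89 ± 0.44 and a WT gap of 2.28-fold. Ifi35 and the helicase gene Helz2 had log2 differences of 0.74 ± 0.50 and 0.86 ± 0.39 and their groups did not overlap.

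In the other 3 of these effectors the groups overlapped. Epsti1 was at 26.3 and 6.69 CPM in AXL KO tumours, against 12.1 and 2.25 CPM in WT tumours. The AXL KO libraries lay on either side of WT replicate 1, with replicate 1 far above replicate 2, and without AXL KO replicate 1 its log2 difference of 1.19 ± 0.96 became −0.12. Sp100, a nuclear body protein gene, was at 82.6 and 123 CPM in AXL KO tumours, against 86.5 and 5.18 CPM in WT tumours, with a log2 difference of 1.16 ± 1.14. Siglec1, a sialic acid receptor of macrophages, was at 21.6 and 29.8 CPM in AXL KO tumours, against 27.9 and 9.69 CPM in WT tumours, and without WT replicate 2 its log2 difference was −0.12. Isg20 also changed sign, to −0.57 without AXL KO replicate 2.

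**Figure D3:**
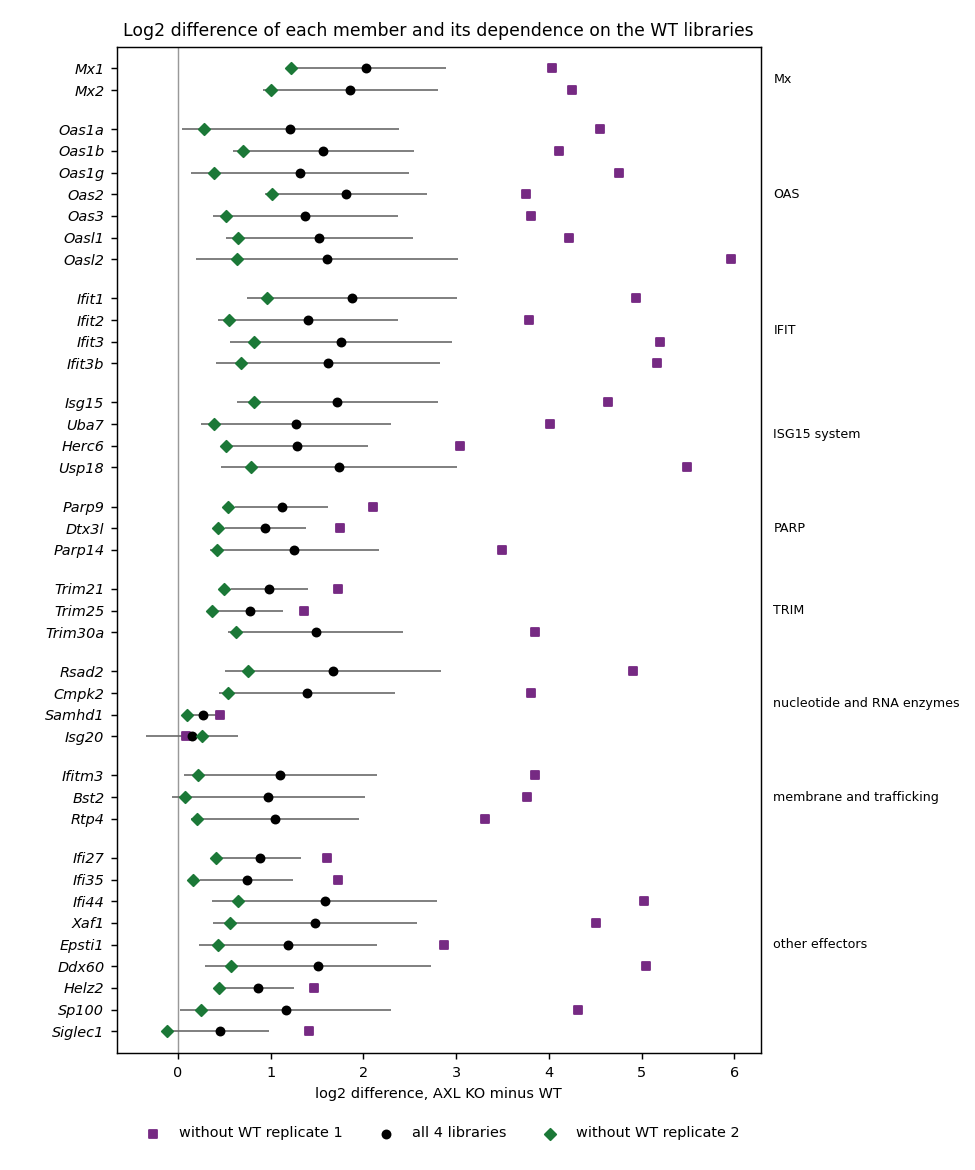
Log2 difference of each gene, AXL KO minus WT, in the fit of all 4 libraries (black, bars ± SE), without WT replicate 1 (purple) and without WT replicate 2 (green). The purple values have a median of 3.85 and the green values a median of 0.52.

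The size of the difference depended on which WT library the AXL KO libraries were set against. Against WT replicate 2 alone the median log2 difference was 3.85, from 0.08 for Isg20 to 5.97 for Oasl2, and 29 of the 39 genes passed edgeR's test at an adjusted p of 0.05, all higher in AXL KO. In that fit 1.66% of all tested genes passed. Calls that were higher in AXL KO made up 0.997% of all tested genes. At an unadjusted p under 0.05 there were 38 members, against 20.2% of all tested genes, and DESeq2 called 37, against 7.24%. By edgeR, the 10 that did not pass were Oas2, Oas3, Ifit2, Trim25, Samhd1, Isg20, Ifi27, Epsti1, Helz2 and Siglec1. The lone WT library is assumed there to vary like the others. Against WT replicate 1 alone the median was 0.52, from −0.12 for Siglec1 to 1.22 for Mx1, where the median over all tested genes was 0.02. In that fit 38 of the 39 values were positive, 0 passed edgeR's test and 17 had an unadjusted p under 0.05, where 2.72% of all tested genes had. DESeq2 called 0 members in it as well, where it called 0.197% of all tested genes. Without AXL KO replicate 1 or without AXL KO replicate 2, edgeR called 0 members, with 0 at an unadjusted p under 0.05 against 0.888% and 1.57% of all tested genes, and DESeq2 called 0 members, against 0.134% and 0.0611%.

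Set against WT replicate 1, AXL KO replicate 1 was at a median of 1.37-fold its level over the 39 genes, with a range from 0.725-fold for Isg20 to 2.17-fold for Epsti1. AXL KO replicate 2 was at a median of 1.505-fold, from 0.552-fold for Epsti1 to 2.83-fold for Mx1. Both AXL KO libraries lay above WT replicate 1 for 34 of the 39, where 33.2% of all tested genes did. In the fit without WT replicate 2 the 3 highest log2 differences were those of Mx1, Oas2 (1.01) and Mx2. Ifitm3, Bst2, Rtp4, Ifi35 and Samhd1 had values between 0.08 and 0.21 in it.

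The members did not share 1 size of gap between the WT libraries. WT replicate 1 was more than 10-fold above WT replicate 2 for 18 genes, 2-fold to 10-fold above for 18, and under 2-fold for Trim25, Samhd1 and Isg20. Of all tested genes, 1.01% had a gap of more than 10-fold in that direction. A gap of more than 2-fold was seen for 36 members and 7.75% of all tested genes. The median gap was 18.2-fold for the IFIT genes, 13.2-fold for the ISG15 system, 12.3-fold for the membrane proteins and 11.9-fold for the OAS genes. It was 8.24-fold for Mx, 2.93-fold for the PARP genes and 2.34-fold for the TRIM genes. Over all tested genes the median ratio was 0.991. These ratios describe 2 libraries and carry no replicate error.

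**Figure D4:**
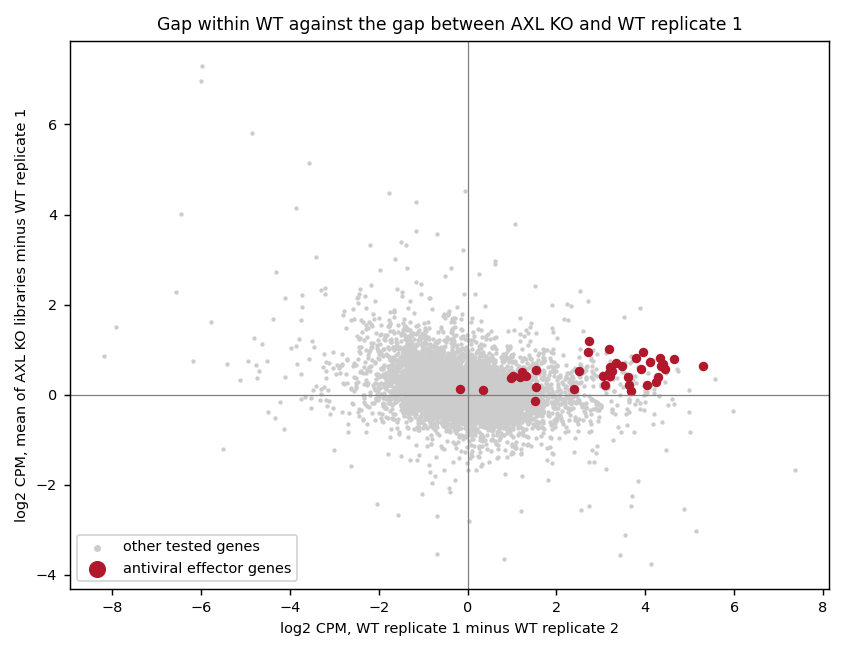
Each point is a tested gene, with the 39 antiviral effector genes in red. The horizontal axis is the log2 CPM of WT replicate 1 minus WT replicate 2, and the vertical axis the mean log2 CPM of the AXL KO libraries minus WT replicate 1, so both axes use WT replicate 1. The red points lie far to the right, with a median of 3.21 on the horizontal axis and 0.49 on the vertical axis.

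The levels of the AXL KO libraries lay within 1.5-fold of each other for 32 of the 39 genes, a share near that of all tested genes, where 81.8% of all tested genes did. AXL KO replicate 2 was more than 1.5-fold above replicate 1 for Mx1, Oas2, Oas3, Ifit2, Rsad2 and Isg20, by 1.51-fold to 2.23-fold. Epsti1 was the 1 gene with the opposite order beyond that size, at a ratio of 0.254. AXL KO replicate 2 was the highest library for 26 of the 39 genes, where it was for 17.2% of all tested genes, and AXL KO replicate 1 for the other 13. With AXL KO replicate 2 left out, that is within the shared prefix, the median log2 difference of the members was 1.22.

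Levels between genes were compared as CPM per kilobase of exon. By the AXL KO mean Ifitm3 was highest, with 444 and 584 CPM per kilobase in AXL KO and 442 and 35.8 in WT. In the same order Bst2, Ifi27, Isg15 and Rtp4 followed, at 253, 246, 117 and 106 CPM per kilobase. Neighbours in this order such as Bst2 and Ifi27, or Isg15 and Rtp4, overlapped between the libraries. In WT replicate 2 Ifi27 was above both Ifitm3 and Bst2, at 81.1 CPM per kilobase. Oas3, at 2.78, and Isg20, at 1.86, were lowest by the AXL KO mean. Isg15 was at 66.2 and 4.71 CPM per kilobase in WT replicates 1 and 2, and Samhd1 at 18.2 and 14.3. The order of these 2 genes was thus turned round in WT replicate 2, where Samhd1 was the higher.

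Near copies among the members limit what single counts mean. Of the 50-base words in Oas1a transcripts, 57.6% also occur in another gene, all of them in Oas1g, and 51.2% of those in Ifit3 occur in Ifit3b. For Oas1g and Ifit3b the shares were 45.7% and 45.00%. Among the other 35 members the highest share was 12.5%, for Herc6, mostly with Gm45193, which overlaps it on the same strand. The read length is not given in the sources used here, so the word length is a stand-in. Within each library the copies kept a similar ratio. Ifit3b stood to Ifit3 as 0.624 and 0.648 in AXL KO and 0.703 and 0.653 in WT, while the level of both differed more than 20-fold between the WT libraries. Oas1g stood to Oas1a as 0.330 and 0.322 in AXL KO and 0.303 and 0.282 in WT.

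Interferon transcripts themselves were at the limit of detection. Of 10 interferon genes listed, 5 had no count in any library (Ifna1, Ifna2, Ifne, Ifnk and Ifnl3) and the other 5, among them Ifnb1 and Ifng, had at most 2 counts in a library. None passed the filter, so no difference in them was detectable at this depth. Of 16 receptor and signalling genes 0 passed the test in either direction, with 12 positive and 4 negative log2 differences and a median of 0.27. The receptor genes Ifnar1 and Ifnar2 were at 58.6 and 66.5 CPM (AXL KO) against 60.97 and 55.9 CPM (WT) and at 57.2 and 51.2 CPM (AXL KO) against 47.5 and 42.1 CPM (WT). The kinase genes Jak1 and Tyk2 had WT ratios of 1.11 and 0.959, so receptors and kinases lay close together in all 4 libraries.

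Stat2, Irf9 and Irf7, which interferon itself induces, were lowest in WT replicate 2, as most effectors were. Stat2 was at 137 and 165 CPM in AXL KO tumours, against 118 and 23.7 CPM in WT tumours. Stat2 and Irf9, partners in the ISRE-binding complex, had log2 differences of 1.09 ± 0.71 and 0.97 ± 0.55 and WT gaps of 4.98-fold and 3.25-fold. Irf7, which amplifies interferon production, was at 344 and 430.1 CPM in AXL KO tumours, against 409 and 16.8 CPM in WT tumours, so its groups overlapped. By smallest p the genes of this list were Irf9, Socs1, Stat2 and Jak1, and Socs1, a feedback inhibitor, had a log2 difference of 1.17 ± 0.68. In the fit without WT replicate 2, Stat2 and Irf9 were at 0.35 and 0.35, and Irf7 at −0.08.

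Of 18 paralogs of the members 9 passed the filter and 0 the test, with 8 positive log2 differences and a median of 1.07. Smallest by p were Parp11 at 1.07 ± 0.40, Ifit1bl1 at 1.61 ± 0.75, Ifit1bl2 at 1.96 ± 0.96 and Parp10 at 0.69 ± 0.47. The Ifit1bl1 value rests on only 2 to 30 counts a library, and Ifit1bl2 had 4 counts in WT replicate 2. Ifitm2, next to Ifitm3 and a close relative, was at 108 and 114 CPM in AXL KO tumours, against 99.1 and 155 CPM in WT tumours. It was thus highest in WT replicate 2, the library in which Ifitm3 was lowest. Of 10 other interferon-induced effectors 10 were positive and 0 passed, with a median of 0.90. Eif2ak2, which encodes the RNA-activated kinase PKR, had a log2 difference of 1.08 ± 0.55, Pml 0.44 ± 0.25 and Zc3hav1 0.61 ± 0.35.

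Markers of immune cells were set beside the members, because fewer cells of a type and less RNA per cell cannot be told apart in bulk tumours. The 8 macrophage markers summed to 668 and 878 CPM in AXL KO and 769.7 and 536 CPM in WT. WT replicate 2 was the lowest library for 6 of the 8, and the sums differed by less than those of the 39 effectors. The 3 pan-leukocyte markers summed to 108 and 146 CPM in AXL KO and 138 and 70.3 CPM in WT, lowest in WT replicate 2 for all 3. T cell markers (6 genes) summed to 9.99 and 14.1 CPM in AXL KO and 19.5 and 2.57 CPM in WT, and NK cell markers (5 genes) to 14.3 and 25.6 CPM in AXL KO and 25.6 and 1.94 CPM in WT. WT replicate 2 was the lowest library for all 6 T cell markers and the 4 tested NK cell markers, while WT replicate 1 and not an AXL KO library had the highest T cell sum. Plasmacytoid dendritic cell markers (5 genes) summed to 3.79 and 5.10 CPM in AXL KO and 7.76 and 6.18 CPM in WT. Cox6a2 was at 0 counts in AXL KO replicate 1 and WT replicate 2. Much of these sums was Pacsin1, at 1.82 and 2.64 CPM (AXL KO) against 5.38 and 5.03 CPM (WT). Siglech, the other tested gene of this list, was at 1.55 and 1.95 CPM (AXL KO) against 2.06 and 0.838 CPM (WT). Siglech was thus lowest in WT replicate 2, unlike the sum. B cell markers (4 genes) summed to 1.12 and 0.570 CPM in AXL KO and 1.26 and 1.36 CPM in WT, and neutrophil markers (4 genes) to 5.45 and 6.21 CPM in AXL KO and 5.10 and 3.04 CPM in WT. Only 1 B cell gene and 2 neutrophil genes passed the filter. No B cell gene had more than 17 counts in a library, and the tested one was lowest in WT replicate 2, unlike the sum. The part of these cells in the level of the effector genes was not tested. The 7 mammary epithelium markers, Erbb2 among them, summed to 23186 and 23309.8 CPM in AXL KO and 14539 and 16587 CPM in WT. Most of each of these sums was Erbb2. Of the 7 log2 differences 3 were positive and 4 negative, with a median of −0.04, so the sums do not stand for the markers as a set. WT replicate 1 stood to WT replicate 2 at a median of 0.871 over these markers, from 0.401 for Krt19 to 1.38 for Epcam. Fibroblast markers (5 genes) summed to 245 and 841 CPM in AXL KO and 641 and 919 CPM in WT, and endothelial markers (4 genes) to 72.2 and 97.7 CPM in AXL KO and 86.97 and 82.04 CPM in WT.

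**Figure D5:**
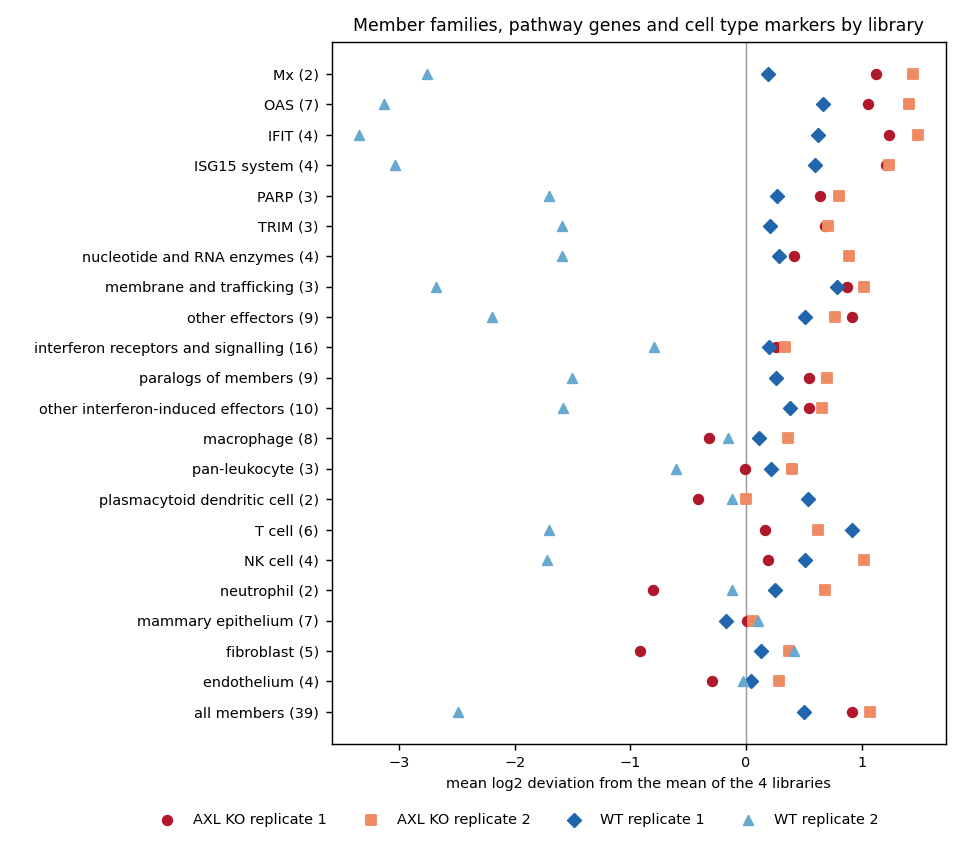
Mean log2 deviation of each gene list from its mean over the 4 libraries, 1 symbol per library, with the number of tested genes in brackets. WT replicate 2 lies between −3.35 and −1.59 for the 9 sets of members. It lies at −1.71, −1.72 and −0.60 for T cell, NK cell and pan-leukocyte markers. For macrophage, endothelial and epithelial markers it lies at −0.16, −0.03 and 0.10. The macrophage value is a mean over 6 genes lowest in WT replicate 2 and over Mrc1 and Cd163, which were higher there than in WT replicate 1.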

How the data were processed

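RNA-seq counts of 4 tumour libraries were used. The labels' protocols give Trizol extraction, column purification and Illumina library preparation. The deposited files hold 1 whole-number count per gene and library, not normalised by the authors. Per the submitters' processing notes, the tools were DESeq2 1.4.5, HTSeq 0.5.3, TopHat2 2.0.10 and CASAVA 1.8, and the build GRCm38, with no roles stated. The annotation release, strand setting and read length are not given in the sources at hand. Reads outside genes took 5.28% to 8.11% of each file's total, summary lines included, ambiguous reads 0.635% to 1.85%, and alignments that were not unique 23.2% to 28.1%. Library sizes and tests left out the 5 summary lines. Depth ran from 18929743 to 33131739 gene counts.

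Symbols and positions came from GENCODE release M21 on GRCm38, which matched 36345 of 38293 identifiers. Genes were kept with filterByExpr by group (14330 of 20587 with a count), scaled with TMM factors and tested with edgeR 4.0.16 (R 4.3.3; estimateDisp, glmQLFit with legacy=FALSE, glmQLFTest), and p-values were adjusted by Benjamini-Hochberg across every tested gene. The SE is the size of the log2 difference divided by the square root of F. Log2 CPM used a prior count of 2. DESeq2 1.42.0 and limma 3.58.1 (voom) were alternatives, as were other scalings, other low-count filters, robust settings, an adjusted p of 0.10, the replicate number as a block and each library left out, with the filter rerun. The edgeR and DESeq2 tests were run on simulated counts with the same dispersion for every gene. No simulated library stood apart as WT replicate 2 did, so that run does not show which differences could be called here. No pair of libraries agreed within sampling noise by a chi-square statistic over genes. Of the 10 interferon genes and the paralogs, those under the filter were not tested. The members and the gene lists were chosen with earlier results of these data known. Named were all members of the Mx, OAS, IFIT, ISG15 and PARP sets, the other members by set, and up to 4 pathway genes by smallest p, with others named after their values were seen (Ifnar1, Ifnar2, Tyk2, Irf7, Ifitm2, the interferon genes and single cell markers). Some listed pathway genes are counted but not reported singly here.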

Additional observations from a re-analysis of the deposited data

How the results depend on the processing

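The count of 0 members called by edgeR stayed at 0 under both other scalings, both other low-count filters, DESeq2's test, limma-voom, robust settings, an adjusted p of 0.10 and the replicate block. With 1 library left out it ran from 0 to 29, and the 29 came without WT replicate 1. The median log2 difference of the members ran from 0.52 without WT replicate 2 to 3.85 without WT replicate 1 when 1 library was left out, and was 2.13 with limma-voom, which averages log values. Other settings with all 4 libraries, apart from the replicate block, gave 1.30 to 1.32. With 1 library left out, between 34 and 38 members had all AXL KO libraries above all WT libraries. That order is easier to meet with fewer libraries. Without WT replicate 2 it held for 34 members and 33.2% of all tested genes, where 14.7% had it with all 4 libraries. With DESeq2 size factors or library totals 32 members had it. The shares of all tested genes under the other settings were not counted. All 39 members kept a positive difference in every setting with all 4 libraries. With 1 library left out the sign turned for 3 members, with values from −0.12 without AXL KO replicate 1 to 2.87 without WT replicate 1 for Epsti1, from −0.57 without AXL KO replicate 2 to 0.60 without AXL KO replicate 1 for Isg20, and from −0.12 without WT replicate 2 to 1.42 without WT replicate 1 for Siglec1. The cause was not tested.

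The labels do not say that a replicate number marks a shared litter, batch or day, and deviations from the group means of AXL KO replicate 1 and WT replicate 1 correlated at −0.045 over 14330 genes, so the numbers were not taken as pairs. With the replicate block the member count was 0 and the median 2.17, with 29 members at an unadjusted p under 0.05 against 3.98% of all tested genes. Depth limited the interferon genes, with at most 2 counts in a library.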
